A study of Mus musculus with 4 samples.

Results

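Genomic imprinting leaves a gene active on the chromosome from 1 parent and silent on the other. The genes considered here are 10 mouse genes known to be transcribed from the paternal copy, Peg3, Usp29, Mest, Peg10, Sgce, Snrpn, Ndn, Magel2, Plagl1 and Igf2, out of 21938 protein-coding genes in the annotation. They form a list of gene names, and the rule for them uses no measured value. For each gene, binding of Foxr2 was read from peaks within 1 kb of an annotated transcript start (the promoter window) and from peaks in the gene body with 10 kb on either side (the gene region). FOXR2 is a forkhead transcription factor that is normally silent in most tissues after birth and is switched on in some brain tumors.

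Binding was measured by CUT&RUN, in which an antibody guides a nuclease to its target protein so that the DNA beneath it is released and sequenced. The antibody recognised the V5 tag. The Foxr2 p53LOF group (genotype FOXR2 P53LoF in the labels) held 2 replicates of a tumor-derived neurosphere line made in C57BL/6J mice by in utero electroporation, with C-terminally V5-tagged FOXR2 carried on a piggyBac vector under the CAG promoter and Trp53 targeted by CRISPR. The V5 control group held 2 replicates of cells from another electroporation model of the same strain, given the genotype H3.3G34R in the labels and lacking the tag, and the methods leave unclear whether they were 1 line or more. Tag, genotype and line therefore differ together between the groups and cannot be told apart. FOXR2 came from a strong general promoter, and nothing in the labels says that the replicates of a group were separate cultures. Every sample held 500000 cells fixed in 0.1% formaldehyde for 1 minute.

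An imprint is set in the germ line as DNA methylation on 1 parental copy of a control region, which for most paternally expressed genes is a CpG-rich promoter methylated on the maternal copy. The methylated copy is kept silent by KRAB zinc finger proteins such as ZFP57, which reads the methylated hexamer TGCCGC and recruits the corepressor TRIM28, the histone methyltransferase SETDB1 and the methylation machinery. Many of these genes are active in embryonic brain and influence growth. The list covers zinc finger regulators (Peg3, Plagl1), enzymes (Usp29, a ubiquitin protease, and Mest, of the alpha/beta hydrolase fold), a gene derived from a retrotransposon (Peg10), a membrane protein of the sarcoglycan family (Sgce), a spliceosomal protein (Snrpn), members of the MAGE family (Ndn, Magel2) and a growth factor (Igf2). The peak lists hold no allele, methylation or expression values, so neither the imprint nor the cell type of the lines was checked with them.

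Depth was read from the peak lists. The fold enrichment of a peak is the number of fragments over its summit plus 1, divided by the background of its library plus 1. The background recovered from the lists was 1.2635 and 2.044 fragments in Foxr2 p53LOF replicates 1 and 2 and 1.694 and 0.6425 in V5 control replicates 1 and 2. The weakest peaks of the Foxr2 p53LOF lists rested on 6 and 8 fragments. The Foxr2 p53LOF lists held 31909 and 38580 peaks, of which 12435 and 13058 on assembled chromosomes lay in a promoter window of a protein-coding gene. The V5 control lists held 308 and 124 peaks, with 30 and 19 in promoter windows. Fragment counts and folds are given with exact Poisson 95% intervals, which cover counting error only.

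Foxr2 peaks were present at 6 of the 10 genes and absent from 4. A site was called reproducible where peaks of both Foxr2 p53LOF replicates overlapped after the filter in the methods, which asks for a fold above 6, a −log10 q above 6, a length under 10000 bp and no overlap of 10 bp or more with a control peak. Reproducible promoter sites were found at Peg3, Usp29, Mest, Peg10 and Sgce, 5 of 10 members, while 39.9% of all protein-coding genes had such a site. Widening to the gene region gave the same 5 members, beside 50.0% of all genes. Before the filter, 6 members had a promoter peak in replicate 1 (54.3% of all genes) and 5 in replicate 2 (55.3%), and 6 had a peak somewhere in the gene region in at least 1 replicate (69.3%). No member had a peak in its gene region in either control replicate, where 0.556% of all genes had one. The 5 genes with promoter sites rest on 3 stretches of DNA, because Peg3 shares its site with Usp29 and Peg10 shares its site with Sgce. The 5 genes are therefore not 5 independent observations, and 5 of 10 lies near the share among all genes, so the count is not read as a property of the list.

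**Figure D1:**
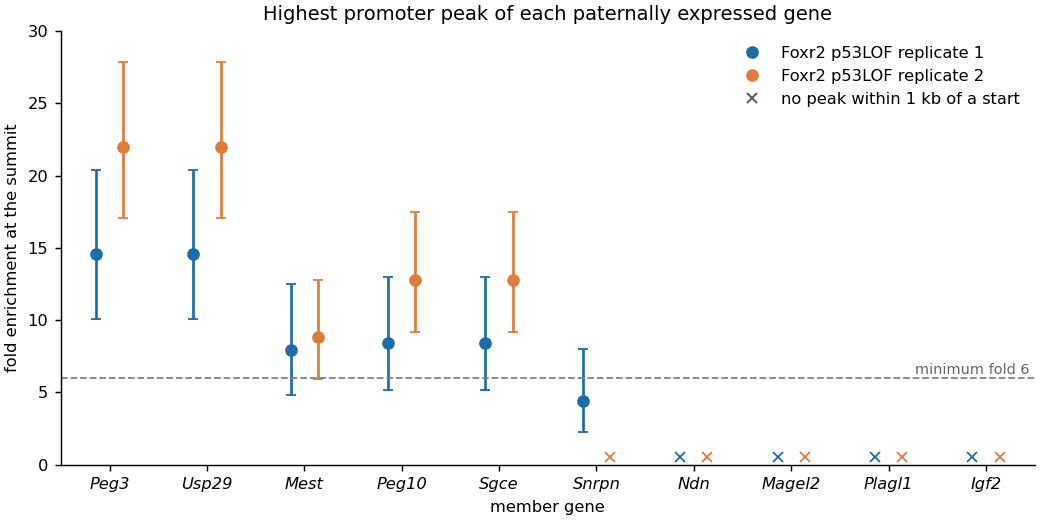
Highest fold enrichment of a peak within 1 kb of a start for each of the 10 genes in Foxr2 p53LOF replicates 1 and 2. Bars are exact Poisson 95% intervals of the summit fragments, crosses mark no peak, and the dashed line is the minimum fold of 6. Peg3 and Usp29 share the tallest pair of points (14.6 and 22.0), and Ndn, Magel2, Plagl1 and Igf2 have none.

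The order of the sites by fold was the same in both replicates. In replicate 1 the highest promoter fold was 14.6 at Peg3 and Usp29, 8.39 at Peg10 and Sgce, 7.95 at Mest and 4.42 at Snrpn. In replicate 2 it was 22.0 at Peg3 and Usp29, 12.8 at Peg10 and Sgce and 8.87 at Mest. The intervals of Peg10 and Mest overlapped in both replicates, so these neighbours in the order did not differ beyond counting error. Those of the neighbours Peg3 and Peg10 overlapped as well, so by this measure they were not separated either. They were 10.1 to 20.4 against 5.15 to 13.0 in replicate 1. In replicate 2 the overlap was narrow, with 17.1 to 27.9 against 9.16 to 17.5. The interval at Peg3 lay above that at Mest in replicate 2 (17.1 to 27.9 against 5.91 to 12.8) and overlapped it in replicate 1 (10.1 to 20.4 against 4.82 to 12.5). With 2 libraries against 2, an exact two-sided permutation test of the highest promoter fold allows 6 arrangements and no p under 0.333, the value obtained at Peg3, Usp29, Mest, Peg10 and Sgce, and it gave 1.00 at Snrpn.

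Since folds can differ between chromosomes with their copy number, each peak was also ranked among all promoter peaks of its own chromosome and library. Chromosome 6 carried 696 and 748 promoter peaks with median folds of 8.84 and 9.20, and chromosome 7 carried 871 and 887 with medians of 7.95 and 8.87. The peak of Peg3 and Usp29 stood at percentile 86.1 of chromosome 7 in replicate 1 and 90.9 in replicate 2, and the ends of its fold interval correspond to percentiles 68.0 to 95.2 and 85.0 to 95.5. Peg10 and Sgce stood at percentile 47.4 (19.1 to 77.2) and 71.7 (49.9 to 85.2) of chromosome 6. Mest stood at percentile 43.5 (14.9 to 75.7) and 48.7 (27.7 to 72.5) of the same chromosome. The peak of Peg3 and Usp29 was high for its chromosome in both libraries, whereas the peaks of Mest were close to the middle of all promoter peaks. Among promoter peaks that pass the filter, Mest stood lower, at percentile 25.0 with both replicates averaged, beside 46.1 among all promoter peaks. Peg3 and Usp29 stood at 83.7 beside 88.5, and Peg10 and Sgce at 44.4 beside 59.5. Over the 5 genes, with both replicates averaged, the median percentile among all promoter peaks was 59.5.

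**Figure D2:**
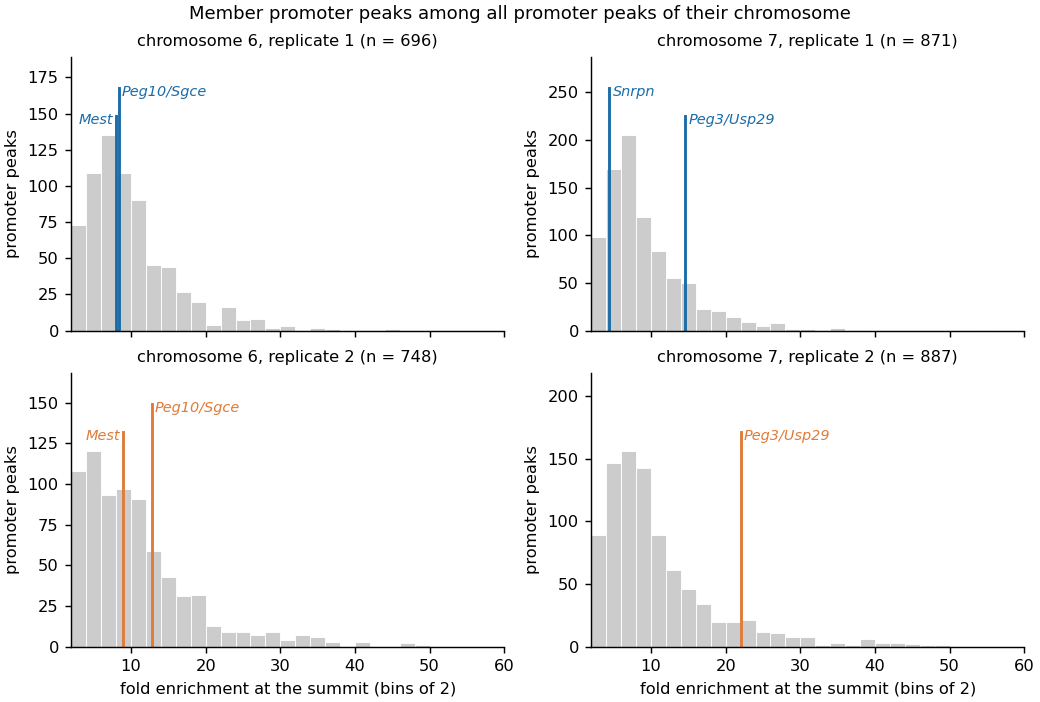
Number of promoter peaks by fold enrichment (bins of 2) on chromosomes 6 and 7 in each Foxr2 p53LOF replicate, with coloured lines at the member peaks. In replicate 2, 1 peak on each chromosome with a fold of 60 or more is not drawn. Mest (7.95 and 8.87) falls within the bulk of chromosome 6, and Peg3/Usp29 (14.6 and 22.0) falls in the upper tail of chromosome 7.

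At Peg3 and Usp29 the summits lay deep inside Peg3 and not at the start that the genes share. Peg3 encodes a zinc finger repressor tied to fetal growth and maternal behavior, and Usp29 is read in the opposite direction from the same promoter. In GRCm38, Peg3 occupies chr7:6703892-6730431 on the minus strand and Usp29 occupies chr7:6730578-6967219 on the plus strand. The replicate 1 peak ran from 6727561 to 6730834 with 32 summit fragments (21.9 to 45.2), a fold of 14.6 and a −log10 q of 30.4. The replicate 2 peak ran from 6726888 to 6730445 with 66 summit fragments (51.0 to 84.0), a fold of 22.0 and a −log10 q of 70.7. The fold was 1.51 times higher in replicate 2, beside a median of 1.18 over the 559 promoter sites of chromosome 7, and the fold intervals overlapped. Both peaks were long for promoter peaks of their chromosome, with 3274 bp at percentile 95.5 and 3558 bp at percentile 92.7. Their summits, at 6728164 and 6728188, were 24 bp apart, while the median over all promoter sites was 83.0 bp. Both fell in an intron of Peg3, 2255 and 2231 bp downstream of its nearest start and 2414 and 2390 bp upstream of that of Usp29. Over all 8006 promoter sites the median distance from summit to start was 176 bp in replicate 1 and 175 bp in replicate 2, and both summits lay more than 2 kb from every start in 39 sites (0.487%). Of the annotated starts, 3 of 4 in Peg3 and 6 of 9 in Usp29 had a peak within 1 kb in both replicates. Requiring the summit itself to lie within 1 kb of a start would therefore remove both genes from the count and leave 3 members, beside 37.4% of all genes under the same rule.

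**Figure D3:**
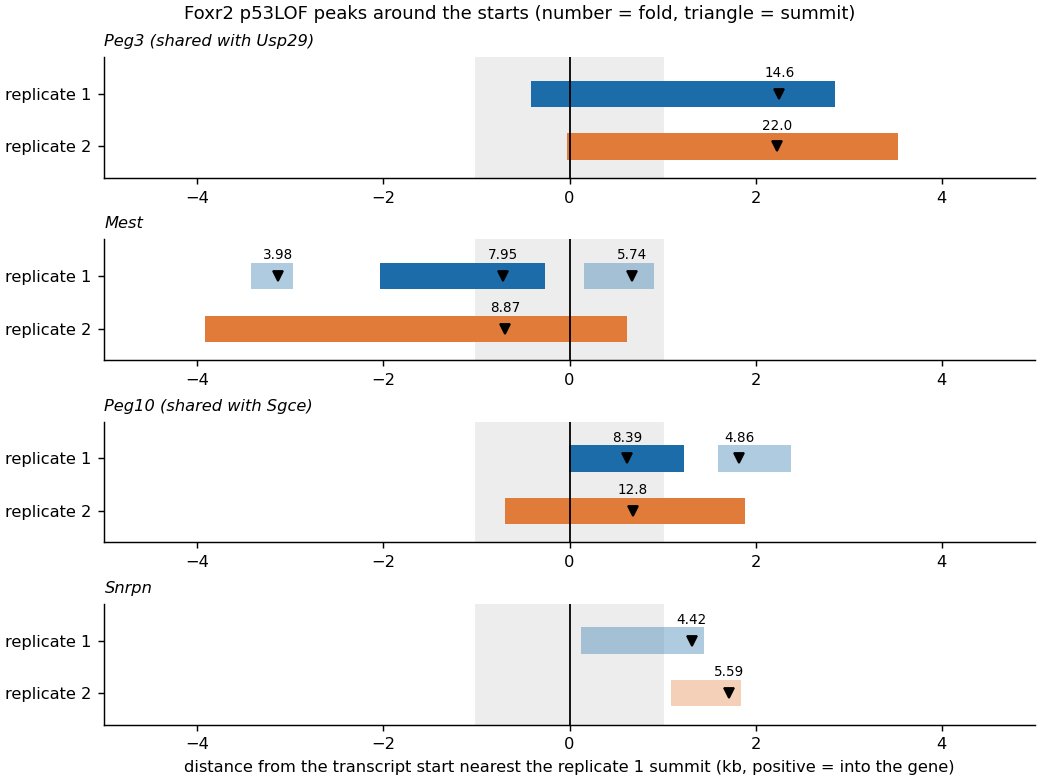
Peaks of Foxr2 p53LOF replicates 1 and 2 around the transcript start (vertical line) nearest the replicate 1 summit at 4 loci, in kb, with the 1 kb promoter window shaded. Triangles are summits, numbers are folds, and pale bars are peaks that fail the filter (summits beyond 5 kb are not drawn). The summits in Peg3 sit past 2 kb inside the gene, those of Mest before the start, and those of Peg10 within the window inside the gene.

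The stretch under the Peg3 summits is a known array of binding sites for YY1, a zinc finger protein that binds the letters AANATGGC and takes part in imprint control at this locus. The reproducible site, chr7:6727561-6730445, held 10 copies of AANATGGC, searched on both strands, which was the highest number in any of the 8006 promoter sites (0.0125%). One or more copies were present in 32.5% of promoter sites, and the density of 3.47 copies per kb in the Peg3 site stood at percentile 99.9. All 10 copies lay on the plus strand, opposite to the direction of Peg3, over 1752 bp from 6727845 to 6729596, with spacings of 30 to 603 bp (median 139 bp). The copies nearest the replicate 1 summit lay 200 bp to its left and 99 bp to its right. The next highest numbers were 9, 7 and 6 copies, at 1 site each. The 10 copies are shown because no other promoter site held as many, each with 8 flanking bases of the plus strand of GRCm38 and with the motif letters in capitals.
YY1 copy at chr7:6727845-6727852: gacaagtaAAGATGGCgcccaggt
YY1 copy at chr7:6727934-6727941: tgtcattcAAGATGGCtactgcac
YY1 copy at chr7:6727964-6727971: cgtcagcaAAGATGGCgtcaggtg
YY1 copy at chr7:6728263-6728270: tgtcaatcAAAATGGCaccttcag
YY1 copy at chr7:6728402-6728409: tgtcattcAAGATGGCgtctgcac
YY1 copy at chr7:6728451-6728458: tgctggcaAAGATGGCgccaaatt
YY1 copy at chr7:6728739-6728746: agccagcaAAGATGGCgtcagggt
YY1 copy at chr7:6728880-6728887: ggccaggaAAGATGGCgccaggat
YY1 copy at chr7:6729483-6729490: gtcatttcAAGATGGCgccaagcg
YY1 copy at chr7:6729589-6729596: caccctccAAGATGGCgccaactg

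The flanks of several copies resembled each other as well. The bases around the summit itself are shown next because they carry the highest fold of any member, again on the plus strand of GRCm38, with AANATGGC in capitals at the only copy in this window of 300 bp.
Peg3 summit, chr7:6728014-6728313: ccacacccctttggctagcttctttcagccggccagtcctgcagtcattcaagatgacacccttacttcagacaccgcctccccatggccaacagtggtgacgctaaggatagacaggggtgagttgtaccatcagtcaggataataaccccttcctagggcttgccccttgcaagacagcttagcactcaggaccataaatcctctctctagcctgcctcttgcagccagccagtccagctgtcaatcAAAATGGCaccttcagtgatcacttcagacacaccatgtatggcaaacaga

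This window was poor in CpG. It held 3 CpG dinucleotides, with a ratio of observed to expected CpG of 0.155 at percentile 2.30 of the promoter sites, whose median was 0.740. Its GC content was 52.3% (percentile 22.8). The hexamer TGCCGC occurred 8 times in the site, a number reached by 16 of the 8006 promoter sites (0.200%), against a median of 1 copy, and its density was 2.77 per kb (percentile 98.9). All 8 copies lay between the summit and the start of Peg3, from 1896 to 252 bp inside the gene, and 5 of them lay on the minus strand. The GC box GGGCGG, the binding site of Sp1, occurred 10 times, a number reached by 10.3% of sites, at 3.47 per kb (percentile 79.1). ETS (CCGGAAGT), NRF1 (GCATGCGC), CRE (TGACGTCA) and E-box (CACGTG) letters were absent from the site on both strands. A match in these windows describes the letters only and does not show which protein was bound.

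**Figure D4:**
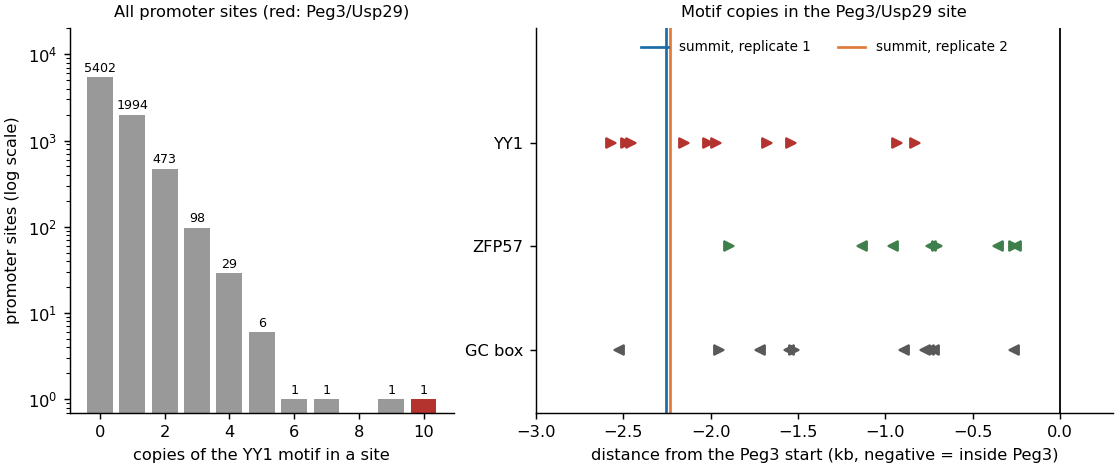
Left, number of promoter sites (log scale) by copies of AANATGGC, with the Peg3/Usp29 site in red at 10 copies. Right, positions of the YY1, ZFP57 (TGCCGC) and GC box (GGGCGG) copies in that site in kb from the Peg3 start, with arrowheads for the strand and lines at the summits of both replicates. The YY1 copies surround the summits and the TGCCGC copies all lie between the summits and the start.

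The shared start of Peg3 and Usp29 lies at the edge of the peaks. The RefSeq promoter window of Usp29 (GRCm38.p6, plus strand, 250 bases before to 50 after the start) is shown because it is the divergent promoter itself and holds the only copy of TGACGTCA found in the promoter windows of the members, in capitals, which the overlapping window of Peg3 holds on the other strand. These letters occurred in 1.79% of 32851 RefSeq promoters and in 1.06% of the windows around promoter site summits. The ratio of observed to expected CpG here was 0.584, at percentile 63.2 of RefSeq promoters.
Usp29 promoter, chr7:6730333-6730632: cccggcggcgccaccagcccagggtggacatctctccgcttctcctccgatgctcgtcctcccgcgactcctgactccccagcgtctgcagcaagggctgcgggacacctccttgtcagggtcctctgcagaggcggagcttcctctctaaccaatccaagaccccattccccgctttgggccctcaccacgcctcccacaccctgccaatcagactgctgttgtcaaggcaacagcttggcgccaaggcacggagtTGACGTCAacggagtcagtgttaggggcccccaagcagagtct

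At Peg10 and Sgce the binding lay just inside Peg10. Peg10 encodes gag-like and pol-like proteins descended from a retrotransposon and is needed for the placenta, and Sgce encodes epsilon-sarcoglycan, whose loss from the paternal copy causes myoclonus-dystonia in people. Peg10 occupies chr6:4747306-4760517 on the plus strand and Sgce occupies chr6:4674350-4747207 on the minus strand, so that their starts face apart. The replicate 1 peak ran from 4747401 to 4748638 with 18 summit fragments (10.7 to 28.4), a fold of 8.39 (5.15 to 13.0) and a −log10 q of 12.7. The replicate 2 peak ran from 4746711 to 4749296 with 38 summit fragments (26.9 to 52.2), a fold of 12.8 (9.16 to 17.5) and a −log10 q of 31.8. The fold was higher in replicate 2, but the intervals overlapped. The ratio of the replicate 2 to the replicate 1 fold was 1.53, beside a median of 1.14 over the 480 promoter sites of chromosome 6. The summits at 4748022 and 4748084 lay in an intron of Peg10, 616 and 678 bp downstream of the nearest Peg10 start and 815 and 877 bp upstream of that of Sgce. A further, weaker peak of replicate 1 (fold 4.86) followed from 4749007 to 4749788 and failed the filter, and the longer replicate 2 peak reached into it. Both starts of Peg10 and 10 of 12 of Sgce had a peak within 1 kb in both replicates.

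The Peg10 summit window differed from the other sites in its sequence. Its ratio of observed to expected CpG was 1.28, at percentile 99.9 of promoter sites, with 24 CpG dinucleotides at a GC content of 50.3% (percentile 17.4). The word GGCGCTTCATGC occurred 6 times from 4747985 to 4748167, with neighbours 29 to 55 bp apart, and the replicate 1 and replicate 2 summits both fell inside this run. A window with any word of 12 bases present at least 6 times, simple repeats included, was found at 206 of the 8006 promoter sites (2.57%). TGCCGC occurred 2 times in the reproducible site of 1238 bp, a number reached by 28.8% of sites of any length, and its density of 1.62 per kb stood at percentile 92.8. AANATGGC and GGGCGG did not occur, although 90.0% of promoter sites had a GC box. The plus strand of GRCm38 around the replicate 1 summit is shown for this repeat, with the repeated word in capitals.
Peg10 summit, chr6:4747872-4748171: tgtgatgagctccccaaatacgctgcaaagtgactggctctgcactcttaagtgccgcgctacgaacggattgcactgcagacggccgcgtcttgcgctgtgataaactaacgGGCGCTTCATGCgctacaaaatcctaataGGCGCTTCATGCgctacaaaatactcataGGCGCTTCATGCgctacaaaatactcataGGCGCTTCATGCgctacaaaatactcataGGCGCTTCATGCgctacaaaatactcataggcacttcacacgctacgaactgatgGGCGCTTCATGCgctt

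At Mest, also known as Peg1 and encoding a hydrolase-fold protein of the endoplasmic reticulum, binding lay before the downstream start. Mest occupies chr6:30723547-30748465 on the plus strand and has 10 annotated starts, of which those at 30738050, 30738053 and 30738055 had a peak within 1 kb in both replicates. The strongest replicate 1 peak ran from 30736008 to 30737785 with 17 summit fragments (9.90 to 27.2), a fold of 7.95 (4.82 to 12.5) and a −log10 q of 11.6. The replicate 2 peak ran from 30734128 to 30738667, 4540 bp at length percentile 92.3, with 26 summit fragments (17.0 to 38.1), a fold of 8.87 (5.91 to 12.8) and a −log10 q of 17.7. The replicates were close in fold, with a ratio of 1.12 beside the chromosome median of 1.14. The summits at 30737334 and 30737355 were 21 bp apart and lay 716 and 695 bp before the start at 30738050, in an intron of longer Mest transcripts. A second replicate 1 peak downstream of these starts, from 30738210 to 30738956, had a fold of 5.74 and so missed the filter, and the replicate 2 peak covered part of it. The other peaks of the gene region, 3 in each replicate, had folds of 3.98 to 4.42 in replicate 1 and 3.94 to 5.59 in replicate 2 and failed the filter.

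The reproducible Mest site, chr6:30736008-30737785, held 3 copies of TGCCGC, a number reached by 12.9% of promoter sites (1.69 per kb, percentile 93.6), 1 GC box (90.0% of sites had at least 1) and no copy of AANATGGC. Its summit window had a GC content of 52.0% (percentile 21.9) and a ratio of observed to expected CpG of 0.645 (percentile 35.8). It is shown on the plus strand of GRCm38, with the letters of TGCCGC, which reads GCGGCA on this strand, in capitals.
Mest summit, chr6:30737184-30737483: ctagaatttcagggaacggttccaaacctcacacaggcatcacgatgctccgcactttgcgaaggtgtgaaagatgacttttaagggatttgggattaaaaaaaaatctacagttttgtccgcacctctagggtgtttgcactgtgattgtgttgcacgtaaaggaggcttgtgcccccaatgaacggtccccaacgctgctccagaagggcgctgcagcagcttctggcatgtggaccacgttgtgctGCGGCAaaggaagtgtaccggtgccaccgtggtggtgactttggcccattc

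All 3 summit windows, those of Peg3, Peg10 and Mest, were thus below the median GC content of promoter sites (61.3%), and none held an ETS, NRF1, CRE or E-box match. Those letters were uncommon in summit windows in general, with 3.46% holding CCGGAAGT, 2.14% GCATGCGC, 8.82% CACGTG and 1.06% the CRE letters. The ZFP57 hexamer was in 20.1% of summit windows, those of Peg10 and Mest among them. AANATGGC was in 7.91%, that of Peg3 among them.

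Snrpn was the member with peaks that did not reach the filter. It encodes the spliceosomal protein SmN, and the start it shares with Snurf belongs to the imprinting center of the Prader-Willi region. Snrpn occupies chr7:59982495-60140219 on the minus strand. The replicate 1 peak ran from 60003667 to 60004991 with 9 summit fragments (4.12 to 17.1), a fold of 4.42 (2.26 to 7.99) and a −log10 q of 3.75, and it ended 120 bp from the start at 60005111. The replicate 2 peak ran from 60003272 to 60004017 with 16 summit fragments (9.15 to 26.0), a fold of 5.59 (3.33 to 8.86) and a −log10 q of 7.77, and it ended 1094 bp from that start, just outside the promoter window. The peaks overlapped each other, and their summits lay 1312 and 1719 bp inside the gene, in an intron. In replicate 1 the fold stood at percentile 13.8 of the chromosome 7 promoter peaks (0 to 54.3). Both peaks failed the minimum fold, and the upper ends of their intervals lay above it. The other annotated start, at 60140219, had no peak.

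Ndn and Magel2 had no peak in any of the 4 libraries. Ndn encodes necdin, a MAGE protein of postmitotic neurons, and Magel2 encodes a MAGE protein that regulates a ubiquitin ligase of endosomes. Both are genes with a single start in the same imprinted region as Snrpn. The nearest Foxr2 p53LOF peaks were weak ones in or beside Mkrn3, which lay 68.1 and 64.9 kb from Ndn and 36.7 and 33.5 kb from Magel2 in replicates 1 and 2. The lowest fold in the lists, 3.09 in replicate 1 and 2.96 in replicate 2, bounds what a list can show, so binding below 6 and 8 summit fragments was not detectable at this depth. The RefSeq promoter of Magel2 (GRCm38.p6, plus strand), which covers the annotated start at 62377010, is shown as a member promoter that holds GC box letters, in capitals, and had no peak. GGGCGG occurred in it 2 times and was present in 35.7% of RefSeq promoters.
Magel2 promoter, chr7:62376729-62377028: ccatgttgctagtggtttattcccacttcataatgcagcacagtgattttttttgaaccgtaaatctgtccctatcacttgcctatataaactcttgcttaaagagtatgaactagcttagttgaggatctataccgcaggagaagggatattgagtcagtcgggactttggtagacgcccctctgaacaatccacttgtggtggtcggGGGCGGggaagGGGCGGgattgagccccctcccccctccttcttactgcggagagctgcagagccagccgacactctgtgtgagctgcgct

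Plagl1, a zinc finger regulator of a network of imprinted genes, and Igf2, the fetal growth factor, likewise had no peak in any library within 10 kb. Plagl1 has 11 annotated starts and Igf2 has 9, and none had a peak within 1 kb. The nearest Foxr2 p53LOF peaks lay 51.2 and 43.8 kb from Plagl1, with folds of 4.86 and 4.27, while those nearest to Igf2, with folds of 8.39 and 6.57, were 112 kb away in both replicates. On chromosome 10, which carries Plagl1, 39.5% of genes had a reproducible promoter site, and on chromosome 7, which carries Igf2, Ndn, Magel2, Snrpn, Peg3 and Usp29, 31.3% did. On chromosome 6, which carries Mest, Peg10 and Sgce, the share was 43.2%. The libraries are of bulk cells, so a gene bound in few cells and a gene weakly bound in all cannot be told apart, nor can the parental copies.

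The V5 control peaks nearest to the members lay farther off. The nearest was 185 kb from Snrpn in control replicate 2 (fold 6.70), followed by 214 kb from Snrpn in control replicate 1 (fold 7.79). At Mest the nearest control peaks were 975 kb away in both replicates. The control lists are short, and their weakest peaks rested on 10 and 7 fragments.

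Other imprinted genes gave the setting for these values. Of 23 other paternally expressed genes, 7 had a reproducible promoter site, or 4 of the 18 that are annotated as protein-coding, beside 39.9% of all protein-coding genes. Replicate 1 and 2 folds were 12.4 and 18.1 at Impact, a regulator of the integrated stress response, and 13.3 and 13.1 at Peg13, a noncoding RNA inside Trappc9. Inpp5f, a phosphoinositide phosphatase with an imprinted inner promoter, had sites with folds of 12.8 and 11.2 and of 10.2 and 9.53. The silencing noncoding RNAs Kcnq1ot1 and Airn had 8.39 and 11.5, and 8.39 and 8.54. Mcts2 had 6.19 and 8.21, and Peg12 had 6.19 and 7.88, so that both were close to the minimum fold in replicate 1. Dlk1, Rtl1, Rasgrf1, Slc38a4, Zfp264, Snhg14 and Dio3 had no Foxr2 p53LOF peak. Snhg14 did hold a peak in V5 control replicates 1 and 2 (folds 7.79 and 6.70), the control peaks nearest to Snrpn.

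Of 28 maternally expressed genes, 7 had a reproducible promoter site, or 7 of 24 annotated as protein-coding, beside the same 39.9%. The folds were 12.8 and 15.1 at Blcap, 10.6 and 12.8 at Ube3a, the ubiquitin ligase lost in Angelman syndrome, and 11.5 and 11.5 at Trappc9. They were 8.84 and 8.21 at Cd81, 8.39 and 9.86 at Copg2, 6.63 and 13.8 at Tssc4 and 6.63 and 6.24 at Ppp1r9a. H19, Meg3, Mirg, Zim1, Klf14, Calcr, Ascl2, Slc22a2 and Slc22a3 had no peak. Gnas, which uses either parental copy depending on the promoter, had sites with folds of 8.39 and 11.2 and of 12.4 and 9.20. In both lists the replicate 2 fold at every site was below the 22.0 of Peg3 and Usp29. The interval at Impact (13.7 to 23.5) overlapped that of Peg3 (17.1 to 27.9) in this replicate. Within their chromosomes, Impact stood at percentile 86.0 in replicate 1 and 91.0 in replicate 2 and Blcap at 89.8 and 89.3. Peg3 stood at 86.1 and 90.9, and the other sites of both lists ranked below these in replicate 2. Copies of AANATGGC at these imprinted sites numbered 0 to 2, and the most copies of TGCCGC were at Airn (7), Inpp5f (6 in its second site), Peg13 (6) and Impact (5).

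**Figure D5:**
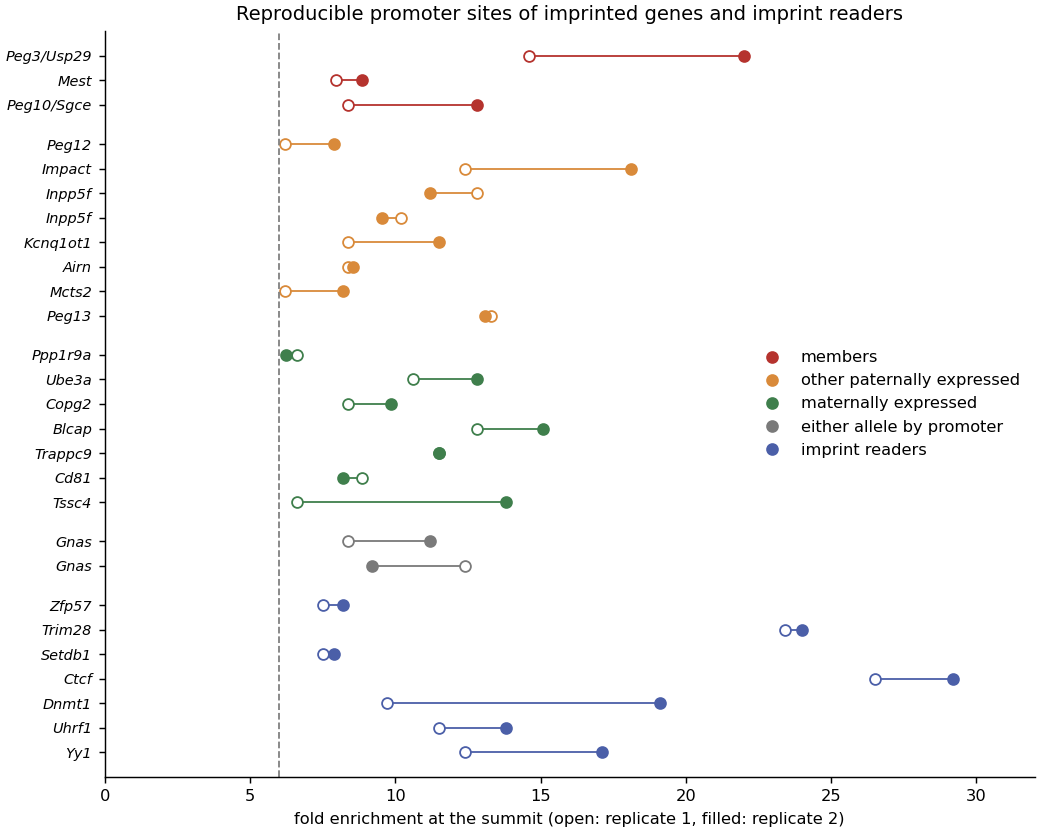
Fold enrichment of each reproducible promoter site of the members, other imprinted genes and imprint readers, with open circles for replicate 1 and filled circles for replicate 2 and a dashed line at the minimum fold of 6. A gene with more than 1 site has a line for each. Peg3/Usp29 (14.6 and 22.0) lies to the right of all other imprinted sites in replicate 1 and replicate 2. Its intervals, not drawn, overlap those of the nearest sites. In replicate 1 they are 10.1 to 20.4 against 9.02 to 18.8 at Peg13. In replicate 2 they are 17.1 to 27.9 against 13.7 to 23.5 at Impact.

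Of 10 genes whose proteins read or keep imprints, 7 carried a reproducible promoter site themselves, beside 39.9% of all protein-coding genes. Ctcf, the insulator protein of the H19 and Igf2 control region, had folds of 26.5 and 29.2, and Trim28 had 23.4 and 24.0. Yy1 had 12.4 and 17.1, Uhrf1 had 11.5 and 13.8 and Dnmt1, the maintenance methyltransferase, had 9.72 and 19.1. Zfp57 had 7.51 and 8.21 and Setdb1 had 7.51 and 7.88. Dppa3 and Zfp42 had no peak, and Zfp445 had peaks but no reproducible site. Differences in counts between the lists were not tested.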

How the data were processed

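The authors trimmed reads with Trimmomatic 0.39, aligned them to mm10 with BWA 0.7.17, removed duplicates with Picard 2.26.6 and called peaks library by library with MACS2 2.2.7.1, with no input library named. The deposited fold enrichment is a ratio, the summit fragments plus 1 over the library background plus 1. Columns of −log10 p and q, as deposited, compare a peak with its own library. The score column, also deposited, repeats q at 10 times its −log10 without decimals. The filter of the methods was applied here, and the intersection with open chromatin was not repeated.

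Library backgrounds were found on a grid of 0.0005 between 0.3 and 4, over peaks with folds up to 30, as the value that gives whole fragments (within 0.02) and the deposited Poisson p. Percentiles are mid-ranks among the promoter peaks, or promoter sites, of protein-coding genes. Read totals are unknown from the lists, so precision comes from the summit fragments. Genes and starts of all transcripts came from GENCODE M21 and sequences from GRCm38.p6, with no peak past a chromosome end. Motif counts used both strands, over 300 bp around the replicate 1 summit or over the whole site. RefSeq promoters matched 8 of the 10 members, with no entry matched for Peg10 and Sgce.

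The members, lists and motifs were chosen with earlier results of these data known. Genes named are the 10 members, other listed imprinted genes and imprint readers with a promoter site, those without a peak by name only, and, for each member with a site, the 2 genes on its chromosome with the closest pair of folds, of which 1 is not reported here. Alternatives covered the minimum fold and q, control overlap, length, overlap, window, reference peaks and leaving out each replicate. Steps were tested on simulated data. Python 3.11.15, pandas 2.3.3, numpy 2.4.6, scipy 1.17.1, pyfaidx 0.9.0.4 and matplotlib 3.10.9 were used.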

Additional observations from a re-analysis of the deposited data

How the results depend on the processing

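The 5 members with a reproducible promoter site and the 5 with a site in the gene region were Peg3, Usp29, Mest, Peg10 and Sgce in both counts. A minimum fold of 10 left 2 members, Peg3 and Usp29, in both counts (20.1% and 27.8% of all genes). With the summit of each replicate required inside the promoter window, 3 members remained (Mest, Peg10 and Sgce, beside 37.4% of all genes), and with the gene body alone 3 remained (Peg3, Mest and Peg10, beside 42.3%). With no minimum on fold or q, Snrpn joined the gene region count, which became 6, while the share of all genes rose from 50.0% to 62.4%. Other settings of the filter, overlap and window gave 5 in each count they applied to, while the share of all genes ran from 39.2% to 51.4% for promoter sites and from 50.0% to 64.7% for the gene region. Leaving out each replicate in turn gave 5 at the lowest and 5 at the highest in both counts. The shares of all genes were 44.4% and 55.1% without Foxr2 p53LOF replicate 1 and 42.6% and 53.1% without Foxr2 p53LOF replicate 2. The same steps gave a median percentile of 47.4 to 71.7 beside the 59.5 over both replicates. Other reference peaks, windows and measures gave a median percentile of 44.4 to 65.5. In an exact permutation test with the replicate number as a block, chosen after seeing the data, 2 pairs allow 4 arrangements and no two-sided p under 0.50, the value at Peg3, Usp29, Mest, Peg10 and Sgce, and Snrpn gave 1.00. The labels do not say that equal replicate numbers mark a shared culture or day. The counts and percentiles come from no test and have no paired form. The percentile of Mest moved from 46.1 to 25.0 among peaks that pass the filter. In the same setting Peg3 and Usp29 went from 88.5 to 83.7, and Peg10 and Sgce from 59.5 to 44.4. Summit fragments limit these values, and the fold intervals reach below 6 at Mest in both replicates and at Peg10 in replicate 1. Whether the shared sites serve 1 gene or both of a pair, and which parental copy was bound, was not tested.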

Other observations

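The genes around the members differed in their own peaks. Next to Mest, the centrosomal gene Cep41 had a reproducible promoter site with folds of 15.5 and 18.7 in replicates 1 and 2, above both peaks at Mest, and the antisense transcript Gm13782 within Cep41 had 6.63 and 7.88. The antisense transcript Gm44296 and the small RNA gene Gm27568 lie inside Mest and share its site. Next to Sgce, Casd1, a sialic acid acetyltransferase gene, had 5.74 and 4.93 and did not pass the filter. Next to Magel2, the paternally expressed ring finger gene Mkrn3 had promoter peaks of 4.86 and 4.60 that did not pass it either. Near Plagl1, which had no peak, the ribosome assembly gene Ltv1 had a site with 8.84 and 9.53.

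Protein-coding genes with a similar pair of folds on the same chromosome were measured by the Euclidean distance of log2 folds over 2 replicates. For Peg3 and Usp29 they were Hps5 and Gtf2h1, which share folds of 14.1 and 22.0 at a distance of 0.04. For Mest they were Rpa3 and Umad1 with 7.95 and 8.87, the same values as Mest. For Peg10 and Sgce, Washc2 had 8.39 and 12.5, at a distance of 0.04. Folds take few values at low fragment counts, so equal folds are common.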
